A study of Danio rerio with 11 samples.

Results

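The genes described here are 10 zebrafish adhesion molecules of the immunoglobulin superfamily that have been linked to melanoma or to the neural crest: *mcama*, *mcamb*, *alcama*, *alcamb*, *ncam1a*, *ncam1b*, *l1cama*, *l1camb*, *nrcama* and *cadm1a*. They were taken by name out of 24441 genes measured by RNA-seq. The table named 8 of them directly, and *l1cama* and *l1camb*, listed under older symbols, were found by gene identifier. The melanoma group (MA) was EGFP+ cells sorted from 5 tumors of 3 adult fish that carried BRAFV600E under the *mitfa* promoter, p53lf/lf and the crestin:EGFP reporter. MA1 and MA2 were each the tumor of a separate fish, while MA3A, MA3B and MA3C were separate tumors of the same fish. The heterozygous melanocytes (MC_Het) were mCherry+ cells from the skin of 3 adult fish that were BRAFV600E/+, p53+/lf and mitfa+/-. The wild-type melanocytes (MC_WT) were mCherry+ skin cells of 3 adult AB* fish. Both melanocyte groups carried the MiniCoopR vector, which holds a *mitfa* minigene beside mitfa:mCherry, and together they are called MC (n = 6). Melanoma cells and melanocytes were therefore sorted on different reporters, and MC_Het differed from MC_WT at *mitfa* as well as at BRAF and *p53*. The age of the fish was not given in the sources used here.

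Immunoglobulin superfamily adhesion molecules sit in the cell membrane, with a row of immunoglobulin folds outside the cell and a short tail inside it. Many bind the same molecule on a neighbouring cell, and their tails tie the contact to the cytoskeleton through ankyrins or through proteins with FERM or PDZ domains. MCAM and ALCAM were both described early as surface antigens of human melanoma, NCAM1 and L1CAM are best known from nerve cells and their glia, and CADM1 joins epithelial cells and synapses. Zebrafish keep paired copies of many of these genes, marked a and b, from a genome duplication in the ancestor of teleost fish.

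The CPM values imply library totals of 14718024 to 22612463 reads. The paper gives a higher average of sequenced reads and a lower average of reads aligned to the transcriptome, so these totals are neither of those counts. Levels are given as rescaled CPM, reads per 1e6 brought to a common scale by the median of ratios, with factors of 1.19 to 1.36 in MA and 0.685 to 0.889 in MC. Fold changes are on the log2(rescaled CPM + 1) scale, which understates the change of low genes, and adjusted p values are from limma with Benjamini-Hochberg adjustment over all genes tested. The 11 melanophore markers in the table summed to 3745 to 11359 rescaled CPM in MA libraries and 533 to 5636 in MC libraries, with *tyrp1b* and *pmela* the most abundant. Keratinocyte markers, led by *krt5* and *krt4*, summed to 881 to 2702 rescaled CPM in MA and 56911 to 126237 in MC, and 12 of 12 tested were lower in MA. Markers of leukocytes summed to 40.2 to 301 rescaled CPM in MA and 1358 to 2031 in MC, those of fibroblasts to 15.4 to 90.9 in MA and 840 to 5152 in MC, and those of endothelial cells to 13.3 to 35.1 in MA and 102 to 319 in MC. None of these keratinocyte, leukocyte, fibroblast and endothelial markers was at 0 in a whole group. Each MC library thus carried transcripts of several skin cell types, and in bulk RNA fewer cells of a type and less RNA per cell cannot be told apart. The part of these other cells in the differences below was not tested.

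Of the 10 genes, 8 passed the filter on low values when MA was compared with MC, and *mcama* and *ncam1b* did not. Against MC, 2 of the 8 were higher in MA (*alcama* and *cadm1a*), where 23.8% of the 14706 genes tested were higher. Another 3 were lower in MA (*alcamb*, *l1cama* and *nrcama*), where 27.7% of all genes were lower. The shares of these adhesion genes called were not far from those of all genes, so the count itself does not set them apart. Their median log2 fold change was 0.19 over the 8 tested, and 0.04 over all genes tested. At the stricter setting, where the fold change had to exceed 1 on the log2 scale in either direction and the adjusted p had to be below 1e-06, the call held for *alcamb* alone, at a background of 4.64% of all genes lower in MA. The genes passing the filter are those reaching 1 CPM in at least 3 libraries, so the 8 are not a fair sample of the 10. Of the 8, *l1camb* reached 1 CPM in MA libraries alone. *cadm1a* reached it in 5 MA and 2 MC libraries, and would not have passed on the MC libraries alone. *l1cama* reached it in 2 MA and 6 MC libraries, and would not have passed on the MA libraries alone. These genes thus entered the test through the group where they were higher.

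**Figure D1:**
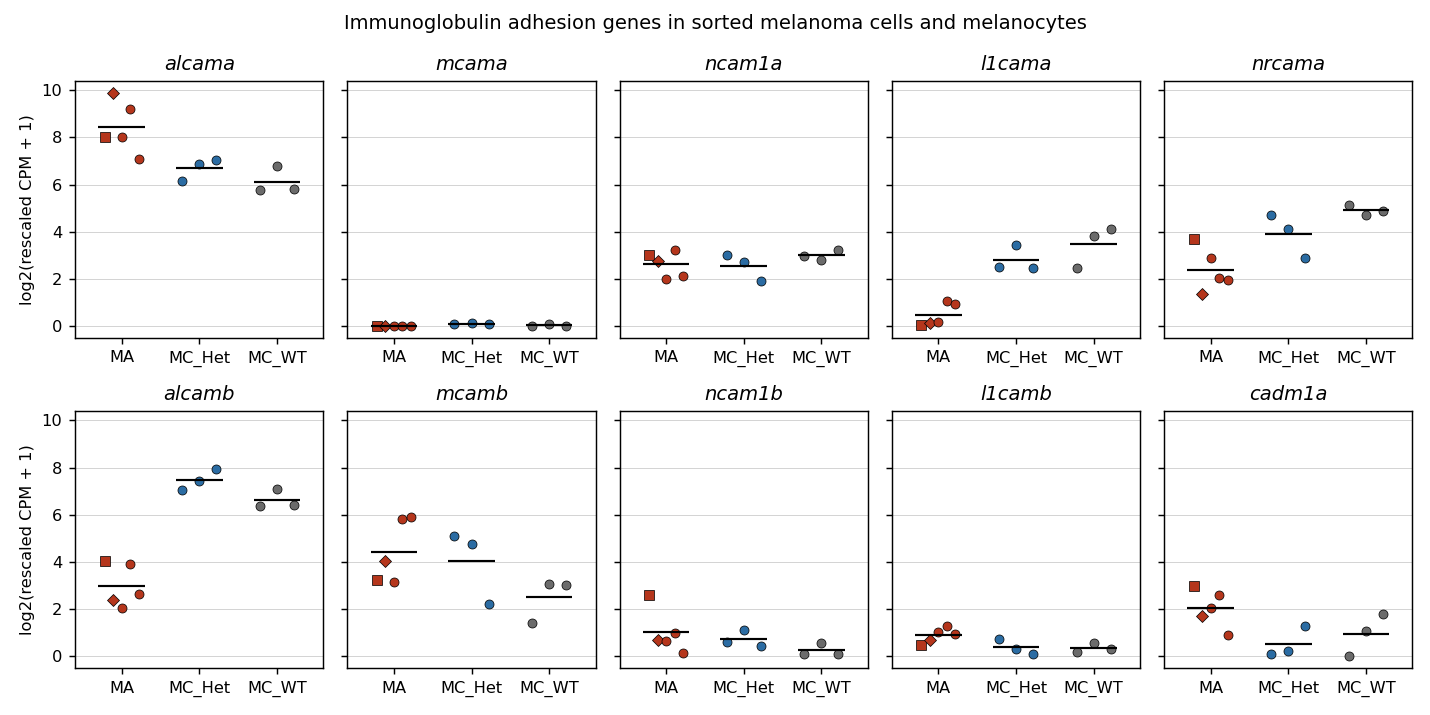
Levels of the 10 adhesion genes in each library, as log2(rescaled CPM + 1) on the vertical axis, for MA (red, n = 5), MC_Het (blue, n = 3) and MC_WT (grey, n = 3). Squares are MA1, diamonds are MA2, red circles are the 3 tumors of fish MA3 and black lines are group means. *alcama* is above every melanocyte library in all MA libraries, whereas *alcamb* and *l1cama* are below every melanocyte library.

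The ALCAM copies changed in opposite directions. ALCAM, also known as CD166 and in fish as neurolin, binds itself on neighbouring cells and binds CD6 on T cells. *alcama* (ENSDARG00000026531) was measured at 256, 950, 257, 590 and 134 rescaled CPM in MA1, MA2, MA3A, MA3B and MA3C, against 70.0, 117 and 130 rescaled CPM in MC_Het and 53.7, 110 and 55.0 rescaled CPM in MC_WT. Every tumor was above every melanocyte library, although MA3C was only just above the highest MC_Het library. The tumors also differed more among themselves than the melanocytes did, with the highest level in MA2 and the lowest in MA3C. The mean was 437 ± 333 rescaled CPM (SD, n = 5) in MA and 89.3 ± 33.7 (SD, n = 6) in MC, a ratio of means of 4.89. The log2 fold change was 2.03 over MC (SE 0.43, adjusted p = 0.0010, limma). Against MC_WT alone it was 2.31 (SE 0.51, adjusted p = 0.0023, limma) and against MC_Het 1.75 (SE 0.51, adjusted p = 0.013, limma). The call against MC_Het was lost when MC_Het1, the lowest of the 3, was left out (1.47, adjusted p = 0.066, limma).

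*alcamb* (ENSDARG00000058538) was low in every tumor. It was measured at 15.2, 4.16, 3.12, 14.2 and 5.22 rescaled CPM in MA1, MA2, MA3A, MA3B and MA3C, against 131, 170 and 244 rescaled CPM in MC_Het and 82.5, 134 and 84.1 rescaled CPM in MC_WT. All tumors lay far below all melanocyte libraries, with MA1 and MA3B the highest tumors and MA3A the lowest. The mean was 8.39 ± 5.83 rescaled CPM (SD, n = 5) in MA and 141 ± 60.4 (SD, n = 6) in MC, which was 16.8 times the MA mean. The log2 fold change was -4.05 over MC (SE 0.40, adjusted p = 6.2e-07, limma), the lowest of the 8 genes tested. It was -3.62 over MC_WT (adjusted p = 1.8e-05, limma) and -4.47 over MC_Het (adjusted p = 2.1e-06, limma). Keratinocyte and other skin markers were also lower in MA than in MC, as given above. Among the melanocyte libraries, *alcamb* was highest in MC_Het3, where the keratinocyte marker sum was 97479 rescaled CPM. It was lowest in MC_WT1, which had the highest such sum (126237 rescaled CPM). In the other MC libraries the keratinocyte sum was 56911 to 80808. The pericyte and muscle sum was 618, 669 and 813 rescaled CPM in MC_Het1, MC_Het2 and MC_Het3, in the order of *alcamb*. In MC_WT1, MC_WT2 and MC_WT3 that sum was 463, 287 and 374, in the reverse order of *alcamb*. The leukocyte sum was 1546, 1358 and 1823 rescaled CPM in MC_Het1, MC_Het2 and MC_Het3. In MC_WT1, MC_WT2 and MC_WT3 it was 1389, 2031 and 1386. Within each genotype it was highest in the same library as *alcamb*, MC_Het3 and MC_WT2, but not lowest in the same library. The fibroblast sum was lowest in these 2 libraries, with 2894, 5152 and 991 in MC_Het1 to MC_Het3 and 1623, 840 and 1965 in MC_WT1 to MC_WT3. The melanophore sum was 5636, 3983 and 1366 in MC_Het1 to MC_Het3, in the reverse order of *alcamb*. In MC_WT1 to MC_WT3 it was 533, 1151 and 1040, in the order of *alcamb*. The part of these cell types in the *alcamb* levels was not tested.

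As the copies were read in the same libraries, their ratio does not depend on the scaling. It does depend on the mix of cells in a library. The keratinocyte sum, for example, was 881 to 2702 rescaled CPM in MA and 56911 to 126237 in MC. The part of cell mix in this ratio, and in the *l1cama* to *l1camb* ratio below, was not tested. Reads per gene length of *alcama* were divided by those of *alcamb* after adding 0.5 reads to each. These ratios were formed after the separate levels had been seen, so the difference between MA and MC is given as a description, without a test. The log2 ratio was 5.60 ± 1.48 in MA (SD, n = 5), with every tumor between 4.01 and 7.77, and -0.70 ± 0.24 in MC (SD, n = 6), with every library between -0.96 and -0.34. *alcama* thus had 16.1 to 218 times the reads per length of *alcamb* in tumors, whereas *alcamb* was the more abundant copy in all 6 melanocyte libraries. The difference between the group means was 6.30 on the log2 scale. The melanocyte genotypes gave a log2 ratio of -0.84 in MC_Het and -0.56 in MC_WT, with an exact permutation p = 0.30 in a design of 3 against 3 that cannot go below 0.10.

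**Figure D2:**
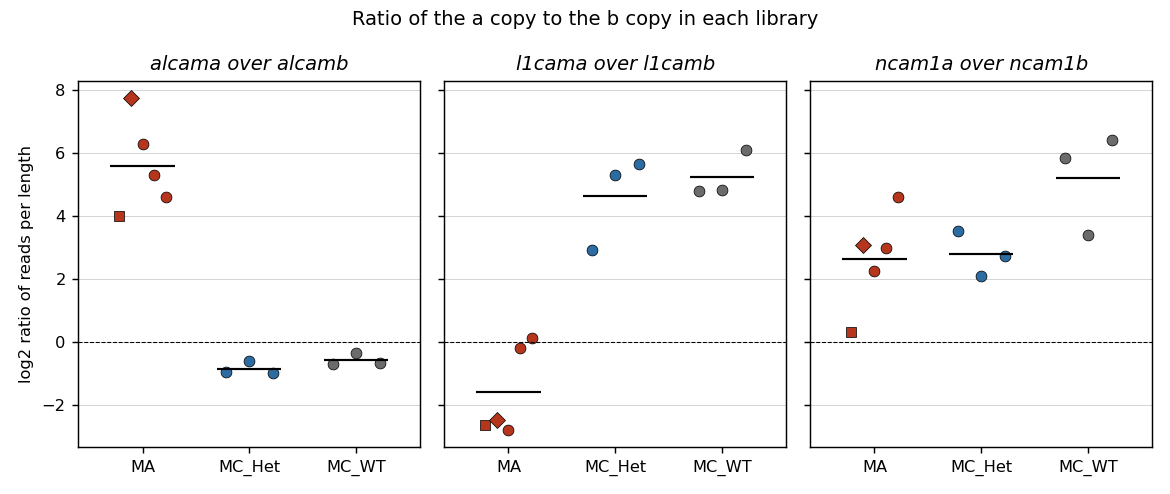
Log2 ratio of reads per length of the a copy over the b copy, after adding 0.5 reads, in each MA (red), MC_Het (blue) and MC_WT (grey) library for 3 pairs. Squares are MA1, diamonds MA2, red circles the tumors of fish MA3, black lines group means and the dashed line equal levels. The *alcama* to *alcamb* ratio is above 4 in all tumors and below 0 in all melanocyte libraries, while the *l1cama* to *l1camb* ratio is below 0.2 in all tumors and above 2.9 in all melanocyte libraries.

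The L1 copies were far less abundant than the ALCAM copies. Per gene length the a copy was the lower one in 4 of the 5 tumors. The a copy was 0.889 times the b copy in MA3B and 1.09 times in MA3C. L1CAM, a neural adhesion molecule that binds ankyrins through its tail, is listed in fish as *l1cama* and *l1camb*. *l1cama* (ENSDARG00000007149) was measured at 0.040, 0.084, 0.114, 1.11 and 0.889 rescaled CPM in MA1, MA2, MA3A, MA3B and MA3C, from 1, 2, 3, 29 and 24 reads. In MC_Het it was measured at 4.65, 9.91 and 4.59 rescaled CPM and in MC_WT at 4.46, 13.1 and 16.3. All tumors were below all melanocyte libraries, and the MA1, MA2 and MA3A values rest on at most 3 reads each. The mean was 0.448 ± 0.511 rescaled CPM (SD, n = 5) in MA and 8.83 ± 5.10 (SD, n = 6) in MC, which was 19.7 times the MA mean. The log2 fold change was -2.67 over MC (SE 0.41, adjusted p = 5.8e-05, limma), -2.99 over MC_WT (adjusted p = 0.00014, limma) and -2.34 over MC_Het (adjusted p = 0.0010, limma).

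*l1camb* (ENSDARG00000015025) was low in all groups, with 10 to 37 reads in tumors and 1 to 10 reads in melanocyte libraries. It was measured at 0.402, 0.631, 1.03, 1.42 and 0.926 rescaled CPM in MA1, MA2, MA3A, MA3B and MA3C, against 0.664, 0.244 and 0.0685 in MC_Het and 0.146, 0.483 and 0.241 in MC_WT. The groups overlapped through MA1, MA2, MC_Het1 and MC_WT2. Its log2 fold change over MC was 0.52 (SE 0.25, adjusted p = 0.099, limma), with a 95% interval of -0.02 to 1.05. *l1camb* passed the threshold on CPM as deposited (0.74, adjusted p = 0.020, limma) and without the filter on low values (0.52, adjusted p = 0.031, limma). It reached 1 CPM only in MA3A, MA3B and MA3C, tumors of the same fish, and in 0 MC libraries. The gene thus entered the fit through MA alone. With any of these tumors left out, or with them averaged, it fell below the filter and was not tested. The log2 ratio of *l1cama* over *l1camb* was -1.59 ± 1.43 in MA (SD, n = 5) and 4.94 ± 1.1 in MC (SD, n = 6). The ranges were -2.80 to 0.12 in MA and 2.92 to 6.09 in MC, and the difference between the means was -6.53, again a description without a test. The genotypes gave mean log2 ratios of 4.63 in MC_Het and 5.25 in MC_WT (exact permutation p = 0.80).

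*nrcama* (ENSDARG00000006396), a member of the L1 family that also binds ankyrins, was lower in tumors. Its levels were 12.1, 1.60, 6.46, 3.11 and 2.89 rescaled CPM in MA1, MA2, MA3A, MA3B and MA3C, 25.0, 16.1 and 6.37 in MC_Het and 34.3, 25.0 and 28.3 in MC_WT. Every tumor was below every MC_WT library, but MA1 and MA3A were above MC_Het3. The mean was 5.23 ± 4.24 rescaled CPM (SD, n = 5) in MA and 22.5 ± 9.85 (SD, n = 6) in MC, and the log2 fold change was -2.0 (SE 0.47, adjusted p = 0.0023, limma). It was -2.51 over MC_WT (SE 0.53, adjusted p = 0.0015, limma). Over MC_Het it was -1.49 (SE 0.53, adjusted p = 0.032, limma), and this call was lost in 11 of 24 alternative settings, with a value of -1.1 (adjusted p = 0.15, limma) when MC_Het1 was left out. Allowing for the shared fish of MA3A, MA3B and MA3C ended it as well, with -1.36 (adjusted p = 0.089, limma) when they were averaged and -1.46 (adjusted p = 0.060, limma) with fish as a random block. It was also lost without MA2 (-1.20, adjusted p = 0.071), MA3B (-1.38, adjusted p = 0.064), MA3C (-1.37, adjusted p = 0.062) or MC_Het2 (-1.41, adjusted p = 0.090).

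*cadm1a* (ENSDARG00000031075), whose mammalian counterpart binds itself and other nectin-like molecules and attaches to protein 4.1 family members, was the other gene higher in MA. It was measured at 6.87, 2.23, 3.15, 5.10 and 0.852 rescaled CPM in MA1, MA2, MA3A, MA3B and MA3C, against 0.066, 0.162 and 1.44 in MC_Het and 0, 1.09 and 2.41 in MC_WT. The groups overlapped, since MA3C lay below MC_Het3, MC_WT2 and MC_WT3. The mean was 3.64 ± 2.38 rescaled CPM (SD, n = 5) in MA and 0.861 ± 0.965 (SD, n = 6) in MC. The log2 fold change was 1.31 (SE 0.44, adjusted p = 0.021, limma), and it did not pass with edgeR (adjusted p = 0.10), with DESeq2 (adjusted p = 0.059), without MA1 (1.06, adjusted p = 0.056, limma) or without MA3B (1.16, adjusted p = 0.053, limma). Over MC_Het it was 1.51 (SE 0.53, adjusted p = 0.030, limma). That call was lost without MA1 (1.27, adjusted p = 0.059), MA3B (1.37, adjusted p = 0.061), MC_Het1 (1.29, adjusted p = 0.11) or MC_Het2 (1.36, adjusted p = 0.10). It was also lost with edgeR (adjusted p = 0.12) and without the filter on low values (adjusted p = 0.064, limma). Over MC_WT the log2 fold change was 1.1 (SE 0.53, adjusted p = 0.10, limma), which was not past the threshold. It passed without MA3C (1.39, adjusted p = 0.040, limma) and on CPM as deposited (1.49, adjusted p = 0.027, limma). The other copy, *cadm1b*, averaged 0.935 rescaled CPM in MA and 0.798 in MC, with a log2 fold change of -0.03 (adjusted p = 0.94, limma).

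**Figure D3:**
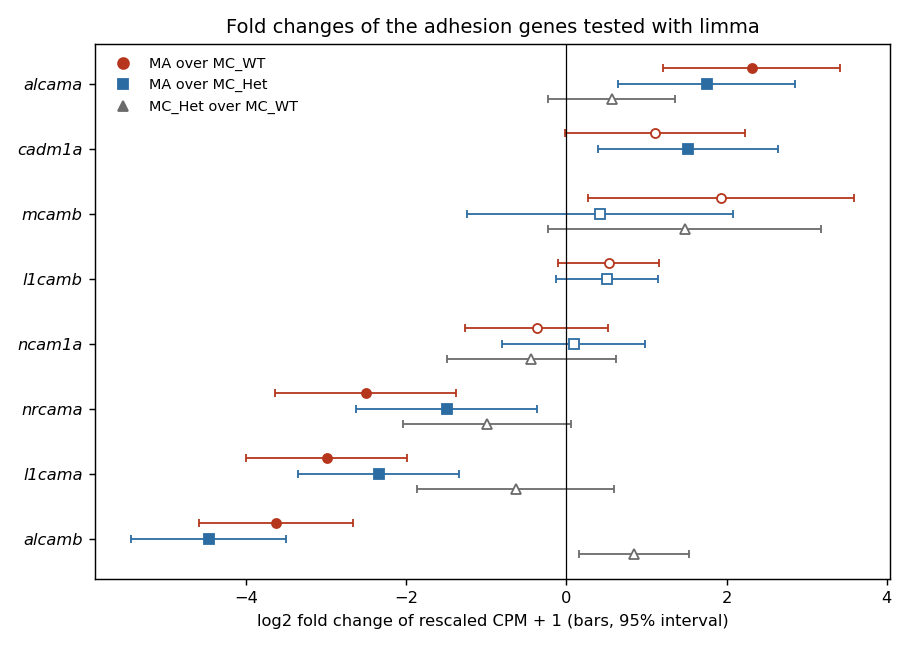
Log2 fold changes of the 8 adhesion genes tested, with 95% limma intervals on the horizontal axis, for MA over MC_WT (red circles), MA over MC_Het (blue squares) and MC_Het over MC_WT (grey triangles). Filled symbols had an adjusted p under 0.05, and *l1camb* and *cadm1a* were too low to be tested between the genotypes. The intervals of *alcamb*, *l1cama* and *nrcama* lie below 0 against both melanocyte groups and that of *alcama* lies above 0 against both.

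With the main settings the MCAM copies gave no call. MCAM, also named CD146, is a melanoma antigen and is also made by endothelial cells and pericytes. *mcamb* (ENSDARG00000005368) was measured at 8.48, 15.5, 7.94, 56.2 and 58.8 rescaled CPM in MA1, MA2, MA3A, MA3B and MA3C, against 33.1, 26.2 and 3.63 in MC_Het and 1.68, 7.43 and 7.18 in MC_WT. The tumors of the same fish were split, with MA3B and MA3C highest and MA3A lowest of all tumors. All tumors were above all MC_WT libraries, while MC_Het1 and MC_Het2 were above MA1, MA2 and MA3A. The mean was 29.4 ± 25.9 rescaled CPM (SD, n = 5) in MA, 20.9 ± 15.4 in MC_Het (SD, n = 3) and 5.43 ± 3.25 in MC_WT (SD, n = 3). The log2 fold change over MC was 1.17 (SE 0.69, adjusted p = 0.16, limma), with a 95% interval of -0.28 to 2.63. It passed the threshold only on CPM as deposited (1.76, adjusted p = 0.036, limma). Over MC_WT it was 1.93 (SE 0.78, adjusted p = 0.056, limma), with a 95% interval of 0.27 to 3.59. It passed the threshold in 7 of 24 alternative settings. Both count tests called it, edgeR (2.45, adjusted p = 0.049) and DESeq2 (2.42, adjusted p = 0.0081). So did 75th percentile scaling (2.04, adjusted p = 0.045, limma) and CPM as deposited (2.53, adjusted p = 0.013, limma). It also passed without MA1 (2.23, adjusted p = 0.034, limma), MA3A (2.25, adjusted p = 0.035, limma) or MC_Het3 (1.93, adjusted p = 0.033, limma). Over MC_Het the log2 fold change was 0.42 (adjusted p = 0.69, limma), with a 95% interval of -1.24 to 2.08, and -0.50 without MC_Het3.

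The endothelial and pericyte marker sums shared the order of *mcamb* in some groups of libraries and not in others. The endothelial sum was 26.4, 13.3, 17.8, 20.6 and 35.1 rescaled CPM in MA1, MA2, MA3A, MA3B and MA3C. It was highest in MA3C, as *mcamb* was, and higher in MA1, a tumor with little *mcamb*, than in MA3B. It was 319, 172 and 109 rescaled CPM in MC_Het1, MC_Het2 and MC_Het3, where *mcamb* followed the same order, and 115, 150 and 102 in MC_WT1, MC_WT2 and MC_WT3. In MA2, MA3A and MA3B the endothelial adhesion gene *pecam1* had 0 reads. In the same tumors the endothelial markers *cdh5* had 13, 2 and 9 reads and *tie1* had 1, 8 and 0. Another such marker, *tek*, was at 3.34 rescaled CPM or more in every tumor. The pericyte and muscle sum was 15.9, 22.4, 9.24, 18.2 and 71.9 rescaled CPM in MA1, MA2, MA3A, MA3B and MA3C, highest and lowest in the same tumors as *mcamb*. In MC_Het1, MC_Het2 and MC_Het3 it was 618, 669 and 813 rescaled CPM, in the reverse order of *mcamb*, and in MC_WT1, MC_WT2 and MC_WT3 it was 463, 287 and 374. The melanophore sum was 5636, 3983 and 1366 rescaled CPM in MC_Het1, MC_Het2 and MC_Het3. In MC_WT1, MC_WT2 and MC_WT3 it was 533, 1151 and 1040, and *mcamb* followed its order in both genotypes. In MA1, MA2, MA3A, MA3B and MA3C it was 3745, 9647, 7265, 4427 and 11359, highest in MA3C as *mcamb* was. Unlike *mcamb*, it was lower in MA3B than in MA2 and MA3A. The part of melanophores, endothelial cells and pericytes in the *mcamb* levels was not tested. *mcama* (ENSDARG00000089643) had 0 reads in all 5 tumors, which allows up to 3 reads or 0.133 to 0.164 deposited CPM per library. It had 1 read in each MC_Het library and in MC_WT2, 4 reads in all, so no difference was detectable at this depth.

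The NCAM1 copies were not called either. NCAM1 is a homophilic adhesion molecule of neurons, glia and muscle that can carry polysialic acid. *ncam1a* (ENSDARG00000056181) was measured at 6.99, 5.68, 3.04, 8.44 and 3.41 rescaled CPM in MA1, MA2, MA3A, MA3B and MA3C, against 7.04, 5.52 and 2.74 in MC_Het and 6.87, 5.92 and 8.39 in MC_WT. The groups overlapped almost fully. Its log2 fold change over MC was -0.14 (SE 0.36, adjusted p = 0.76, limma), and the 95% interval of -0.90 to 0.62 leaves room for a change in either direction. On CPM as deposited the sign turned, with 0.42. *ncam1b* (ENSDARG00000007220) was measured at 5.10, 0.589, 0.570, 0.959 and 0.111 rescaled CPM in MA1, MA2, MA3A, MA3B and MA3C, 0.531, 1.14 and 0.342 in MC_Het and 0.073, 0.483 and 0.060 in MC_WT. MA1 alone was far above the rest, with 127 reads against 3 to 25 in the other tumors. The gene was below the filter, and without it the log2 fold change was 0.53 (adjusted p = 0.32, limma). MA1 also had the highest summed level of Schwann cell and neuron markers among tumors, 130.2 rescaled CPM with *elavl4* alone at 65.1, and the highest *nrcama* and *cadm1a*. Another neuronal marker, *elavl3*, had 0 reads in MA1 and 61 in MA2. The leukocyte sum was also highest in MA1, at 301 rescaled CPM against 40.2 to 171 in the other tumors. The summed level of Schwann cell and neuron markers was 36.7 rescaled CPM in the lowest tumor, and 165 to 215 in the MC libraries. Most of the MC sum was the myelin gene *mbpb*, at 139 to 172 rescaled CPM in MC and 25.7 to 35.9 in MA. *elavl4* went the other way, with a mean of 18.4 in MA and 1.15 in MC. Of the 8 markers of this list tested, 2 were higher and 3 lower in MA. The part of nerve cells and leukocytes in these values was not tested. The log2 ratio of *ncam1a* over *ncam1b* was 2.65 ± 1.55 in MA (SD, n = 5) and 4.01 ± 1.73 in MC (SD, n = 6), and the ranges of 0.33 to 4.60 in MA and 2.11 to 6.41 in MC overlapped.

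Between the melanocyte genotypes, 6 of the 10 genes could be tested, and 0 were higher and 0 lower in MC_Het at an adjusted p under 0.05 with limma, edgeR or DESeq2. Of the 13044 genes tested with limma, 0.368% were higher and 0.169% lower in MC_Het. At an unadjusted p under 0.05, 1 of the 6 passed with limma, namely *alcamb*, and 2 passed with edgeR or DESeq2, *alcamb* and *mcamb*. *alcamb* averaged 182 ± 57.3 rescaled CPM in MC_Het and 100.1 ± 29.1 in MC_WT (SD, n = 3 each). Its log2 fold change was 0.84 (SE 0.31, adjusted p = 0.29, limma), with a 95% interval of 0.16 to 1.53. For *mcamb* the log2 fold change was 1.48 (SE 0.76, adjusted p = 0.47, limma), and its 95% interval ran from -0.23 to 3.18. For *nrcama* it was -0.99 (SE 0.47, adjusted p = 0.42, limma), with an interval of -2.05 to 0.06. *alcama*, *ncam1a* and *l1cama* had log2 fold changes of 0.56, -0.44 and -0.63. These intervals reach beyond 1 in absolute value in each of the 6 genes, so with 3 fish a group these data leave room for genotype differences of that size. The median over the 6 was 0.06, and over all genes 0.004. The melanophore sum was 1366 to 5636 rescaled CPM in MC_Het and 533 to 1151 in MC_WT, without overlap. The pericyte and muscle sum did not overlap either, at 618 to 813 in MC_Het and 287 to 463 in MC_WT. The keratinocyte, leukocyte, fibroblast and endothelial sums overlapped between the genotypes. The part of cell mix in the fold changes between genotypes was not tested.

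Against the genotypes taken singly, MA gave 1 gene higher and 3 lower than MC_WT, beside 19.4% and 25.1% of all genes. Against MC_Het, 2 were higher and 3 lower, beside 20.5% and 25.2% of all genes. Both comparisons share the MA libraries, so they are not independent of each other or of the comparison with MC.

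Per unit of length, the order of the 10 genes also differed between groups. Rescaled RPKM, the rescaled CPM per kilobase of gene length, allows levels of different genes to be set side by side. In MA, *alcama* led with a mean of 136 rescaled RPKM, and its range of 41.8 to 296 lay above that of every other gene of the 10. *mcamb* came next at 8.08 rescaled RPKM, followed by *alcamb* at 2.72, *cadm1a* at 2.65, *ncam1a* at 1.26, *nrcama* at 0.690, *ncam1b* at 0.365, *l1camb* at 0.186 and *l1cama* at 0.107. From *mcamb* down to *l1cama* each neighbour in that order overlapped with the next in its range over tumors. In MC_Het the order began with *alcamb* at 59.0 rescaled RPKM and *alcama* at 33.0, whose ranges did not overlap, then *mcamb* at 5.76, *nrcama* at 2.08 and *l1cama* at 1.53. In MC_WT it began with *alcamb* at 32.5 and *alcama* at 22.8, which overlapped in range although *alcamb* was higher in each of the 3 libraries, then *nrcama* at 3.85, *l1cama* at 2.70 and *ncam1a* at 1.61. In both melanocyte groups the range of *alcama* lay above that of the next gene, and from the third place down neighbours overlapped. All the other genes were below 2 rescaled RPKM on average in the melanocyte groups. So *l1cama* stood in the fifth place in MC_Het and the fourth in MC_WT, and was the lowest gene with reads in MA.

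The genes whose profile over the 11 libraries was nearest to that of *alcama* or *alcamb* were sought among 13883 genes, by the root mean square difference of log2(rescaled CPM + 1) after centring each gene. Nearest to *alcama* were si:dkey-12e7.4 (0.360), *adamts18* (0.459), an extracellular metalloprotease gene, and *tmsb2* (0.473), a thymosin beta gene. The first of these averaged 4.50 rescaled CPM in MA and 0.108 in MC, and *adamts18* 3.46 in MA and 0.072 in MC, so both were low genes. *tmsb2* averaged 40.5 rescaled CPM in MA and 6.48 in MC. Nearest to *alcamb* were *tnfsf12* (0.412), which encodes a ligand of the tumor necrosis factor family, si:ch211-201o1.1 (0.452) and zgc:100997 (0.480). *tnfsf12* averaged 1.02 rescaled CPM in MA and 33.4 in MC.

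A wider list of 64 immunoglobulin superfamily adhesion genes was used to place the 10. Of these, 47 were in the table and 35 were tested, and 8 were higher and 15 lower in MA than in MC, beside 23.8% higher and 27.7% lower of all genes tested. As for the 10, a gene near 0 in 1 group could enter the test through the group where it was higher. Their median log2 fold change was -0.68, beside 0.04 for all genes. On CPM as deposited, 11 were higher and 13 lower, while of all 14706 genes 6203 were higher and 3129 lower on that scale. The highest were *kirrel3a* (3.86, adjusted p = 5.3e-07, limma), *igsf11* (2.27, adjusted p = 0.00053, limma) and *dscamb* (2.06, adjusted p = 0.0048, limma). *igsf11*, a homophilic molecule needed for the adhesion and stripe patterning of adult zebrafish melanophores, averaged 17.3 rescaled CPM in MA and 3.04 in MC. *kirrel3a*, of the nephrin-like family, averaged 21.5 rescaled CPM in MA and 0.498 in MC. *dscamb*, a neuronal homophilic molecule, averaged 8.63 in MA and 0.623 in MC. Its ranges overlapped, with 2.01 to 29.8 rescaled CPM in MA and 0.060 to 2.26 in MC. The other 5 higher in MA were *negr1*, *jam3b*, *igsf8*, *cadm2a* and *igsf21a*, with log2 fold changes of 1.24 to 1.95.

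The lowest of the wider list were *f11r.1* (-6.20, adjusted p = 2.8e-09, limma), *nectin4a* (-6.07, adjusted p = 3.4e-10, limma) and *cxadr* (-4.98, adjusted p = 4.2e-09, limma). In mammals their counterparts are epithelial junction molecules, JAM-A, nectin-4 and the coxsackie and adenovirus receptor. *f11r.1* averaged 7.26 rescaled CPM in MA and 513 in MC, *nectin4a* 0.213 in MA and 83.4 in MC, and *cxadr* 0.259 in MA and 40.3 in MC. The highest MA library had 0.556 rescaled CPM of *nectin4a* and 0.523 of *cxadr*, so both entered the test through MC. All 12 keratinocyte markers tested were also lower in MA, and the part of keratinocytes in these values was not tested. Among the L1 relatives, *chl1a* had a log2 fold change of -4.62 (adjusted p = 6.2e-08, limma), with 1.94 rescaled CPM in MA and 68.8 in MC. *ncam2*, a relative of the NCAM1 copies, had -1.59 (adjusted p = 0.030, limma). *cadm3* and *cadm4*, relatives of *cadm1a*, had -1.83 and -2.80. The endothelial genes *pecam1* (-3.21) and *esama* (-2.29) were lower as well, as were *mpzl2b*, *sdk1a*, *bcam*, *jam2a*, *nectin3b* and *f11r.2*. With at most 0.259 rescaled CPM in an MA library, *pecam1* also entered the test through MC. Between MC_Het and MC_WT, 28 genes of the wider list were tested and limma called 0 in either direction, with 5 at an unadjusted p under 0.05. edgeR called 0, and DESeq2 called only *mpz*, a myelin gene (4.98, adjusted p = 0.041).

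**Figure D4:**
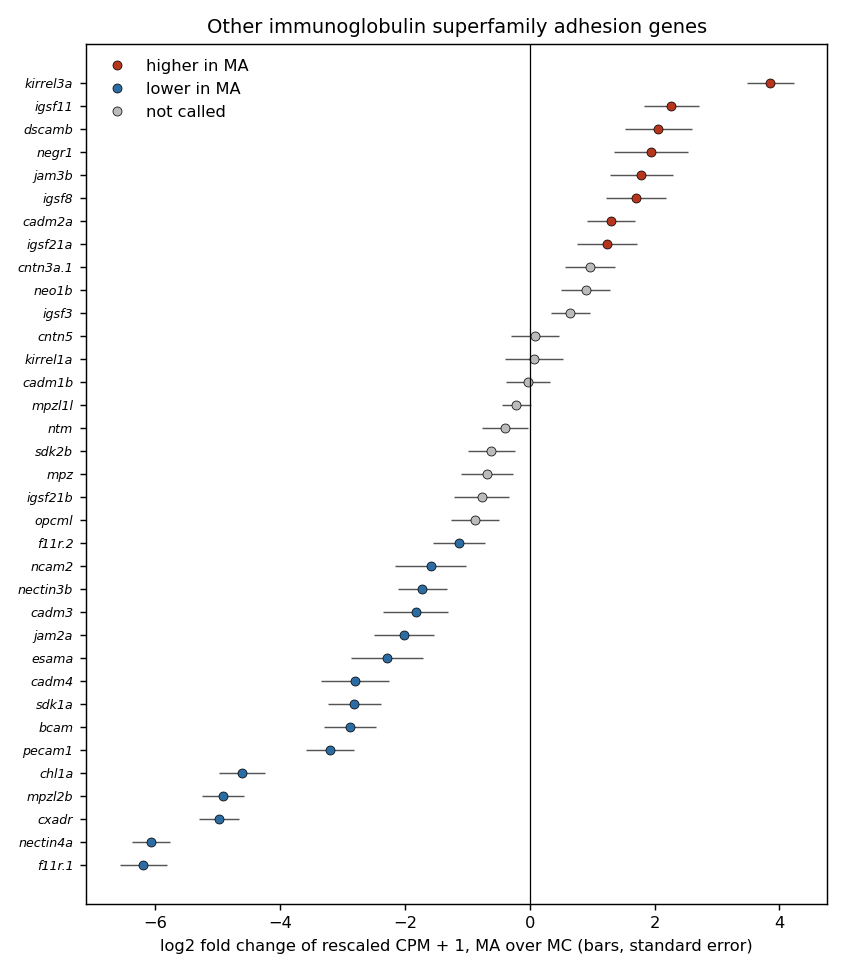
Log2 fold change of MA over MC, with limma standard errors as bars on the horizontal axis, for the 35 genes of the wider immunoglobulin adhesion list that were tested. Red points were higher in MA, blue points lower and grey points not called. The 8 red genes reach 3.86 and the 15 blue genes reach -6.20.

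Proteins known to act on the tails or the outer parts of these molecules were read from a list of 37 genes, of which 28 were in the table and 22 were tested. Against MC, 6 were higher and 6 lower in MA, beside 23.8% and 27.7% of all genes tested, with a median log2 fold change of -0.06 beside 0.04 for all genes. On CPM as deposited, 9 were higher and 3 lower, a scale on which 6203 of all genes were higher and 3129 lower. Ankyrins, which anchor L1-family tails to spectrin, were split, since *ank2b* was higher (2.94, SE 0.62, adjusted p = 0.0010, limma) while *ank3a* (-3.01, SE 0.47, adjusted p = 6.9e-05, limma) and *ank3b* (-1.52, adjusted p = 0.0051, limma) were lower. *ank2b* averaged 52.1 rescaled CPM in MA and 4.55 in MC, and *ank3a* 4.91 in MA and 37.9 in MC. The ranges of *ank2b* overlapped, with 11.1 to 163 rescaled CPM in MA and 1.53 to 14.9 in MC. Of the ERM proteins, which link membrane molecules to actin, *ezra* was lower (-4.17, adjusted p = 3.4e-08, limma), *ezrb* was lower (-1.05, adjusted p = 0.013, limma) and *msna* was higher (1.26, adjusted p = 0.00053, limma). With at most 0.603 rescaled CPM in an MA library, *ezra* entered the test through MC, where it was higher. Of the membrane proteases, *bace2* was higher (2.34, adjusted p = 5.6e-05, limma), with 221 rescaled CPM in MA and 45.7 in MC. *adam10b* was higher (1.49, adjusted p = 0.0037, limma) and *adam10a* lower (-0.83, adjusted p = 0.0011, limma), at 151 rescaled CPM in MA and 269 in MC. *fynb*, a Src-family kinase that acts downstream of NCAM1, was higher (2.56, adjusted p = 8.6e-05, limma), as was *epb41l3b*, a protein 4.1 relative (0.74, adjusted p = 0.042, limma). *fgfr1a*, a growth factor receptor that NCAM1 and L1CAM can bind, was lower (-1.92, adjusted p = 0.0011, limma). Between MC_Het and MC_WT, 20 genes of this list were tested and limma called 0 in either direction, with 2 at an unadjusted p under 0.05. edgeR called 0, and DESeq2 called only *sdcbp2*, a syntenin gene (-1.16, adjusted p = 0.0080).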

How the data were processed

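RNA was measured in 11 FACS-sorted samples: 5 MA, 3 MC_Het and 3 MC_WT. Single-end reads were aligned by the authors with STAR to GRCz11 (danRer11) after FastQC, and CPM and RPKM per gene were deposited for each sample. In the deposited RPKM each CPM value is divided by a fixed length of its gene. The methods name RSEM on RefSeq genes and DESeq2, while the identifiers are from Ensembl and the values hold whole reads. Whether the deposited values came from that RSEM step is not given in the sources used here, nor is how reads matching both copies of a gene pair were assigned. The 24874 lines hold 24441 genes, each entered a single time.

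Whole reads and library totals were recovered from the steps between low CPM values, of which 100% came out whole within 0.1 of a read. Amplified reads are not independent molecules, so depth limits cover counting error only. Rescaling followed the median of ratios. Genes reaching 1 CPM in at least 3 samples entered each limma fit (version 3.58.1, R 4.3.3, eBayes trend) with log2(rescaled CPM + 1) as the response. Tests were 2-sided, adjusted by Benjamini-Hochberg, and called under 0.05. MA was compared with 6 MC samples and, in a 3-group fit over 11 samples, with each genotype. MC_Het was compared with MC_WT within 6 samples. Tumors entered singly, so their shared fish is ignored in the p values. The paper names a single type of sequencer for the RNA-seq, and the sample titles name no run or batch.

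All 10 genes are named whatever their values. From the wider list and the partner list, the rule named the 3 genes with the strongest call each way and a mean of at least 1 CPM. Further genes of both lists were named after their values were seen. The 3 nearest profiles were sought for the genes with the highest and the lowest fold change, and the 2 most abundant genes stand for a marker list. The genes and lists were chosen with earlier results of these data known. Summed over 10 pericyte and muscle markers, levels were 9.24 to 71.9 rescaled CPM in MA and 287 to 813 in MC. The sums were 184 to 730 in MA and 103 to 399 in MC for 7 xanthophore and iridophore markers, and 0.422 to 145 in MA and 40.2 to 180 in MC for 7 erythrocyte markers. They were 461 to 993 in MA and 101 to 290 in MC for 9 proliferation genes, and 1370 to 1856 in MA and 94.4 to 259 in MC for 5 neural crest genes.

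Alternatives were deposited CPM, 75th percentile or TMM scaling, a pseudocount of 0.1 or 0.5, all genes with a read, a mean of at least 5 CPM, RPKM, limma with no trend, count tests on the recovered reads (edgeR 4.0.16, DESeq2 1.42.0), averaging the MA3 tumors, a random fish block, the 3-group fit, a replicate block, and leaving out each sample. For the ratios of copies, 0.1 or 1 read added, averaged MA3 tumors and left-out samples were chosen after seeing the data. The limma, edgeR and DESeq2 fits of MA against MC and of MC_Het against MC_WT were checked on simulated data with known changes. The 3-group fit and the other alternatives were not checked in this way. Simulated samples were independent, unlike the tumors of fish MA3. The simulation gave every gene the same spread setting and, apart from the changed genes, the same composition in both groups. It therefore does not cover the uneven spread between tumors or the need for rescaling in these data. *crestin* and the reporters were not analysed here. No sequences were used.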

Additional observations from a re-analysis of the deposited data

Results flagged for a closer look

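*ncam1b* in MA1 stood far from the other tumors. It was measured at 5.10 rescaled CPM in MA1, while the other 4 tumors lay between 0.111 and 0.959. Its gap to the nearest tumor was 0.830 of the whole range of the group. The threshold applied to this gap is passed by chance in about 1 of 20 groups, and 19 groups were examined.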

How the results depend on the processing

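*alcama* over MC and over MC_WT, and *alcamb* and *l1cama* in all 3 comparisons of MA, kept their direction and their call at 0.05 in every alternative that could be fitted, as did *nrcama* over MC and over MC_WT. CPM as deposited moved the median log2 fold change of all genes to 0.58, from 0.04 after rescaling, and gave 6203 genes higher and 3129 lower against MC in place of 3503 and 4077. With 75th percentile scaling 4121 were higher and 3807 lower. Against MC_WT deposited CPM gave 5562 and 2748, and against MC_Het 5244 and 2924.

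The count of the adhesion genes higher in MA than in MC was 4 on deposited CPM, 1 with a mean of at least 5 CPM, 1 with edgeR, 1 with DESeq2, 0 at the stricter threshold, and 1 to 2 with each sample left out. The count lower was 1 at that threshold. Higher than MC_WT were 4 on deposited CPM, 2 with 75th percentile scaling, edgeR or DESeq2, and 1 to 2 with each sample left out. Higher than MC_Het were 1 without a filter, 1 with a mean of at least 5 CPM, 1 with edgeR, and 0 to 2 with each sample left out. The fold change of *ncam1a* over MC turned to 0.42 on deposited CPM and to 0.029 with the MA3 tumors averaged, and lay between -0.32 and 0.021 with each sample left out. Over MC_WT it was 0.25 on deposited CPM. With each sample left out it lay between -0.24 and 0.31 over MC_Het, where *mcamb* lay between -0.50 and 0.94. The cause of these moves was not tested. Alternatives chosen after seeing the data put the difference in log2 ratio of the copies, MA over MC, at 5.76 to 6.70 for ALCAM and -6.95 to -6.19 for L1.

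Replicate numbers did not pair MC_Het with MC_WT fish (correlations of same-numbered samples of -0.01, -0.13 and -0.07). With the replicate block the counts of adhesion genes higher and lower in MC_Het were 0 and 0, and *alcamb* had a log2 fold change of 0.84 (adjusted p = 0.39, limma). Over all genes, 48 higher and 22 lower became 3 and 5 with the block, 127 and 84 in the fit of 3 groups, 28 and 17 with a pseudocount of 0.1, 34 and 14 without a trend, 2 and 5 without a filter, 26 and 15 with edgeR, 293 and 222 with DESeq2, and 2 to 115 higher with each sample left out (5 to 141 lower). Values of *l1cama*, *l1camb*, *ncam1b* and *mcama* rest on few reads in some libraries, which limits their precision.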
